A study of Homo sapiens with 2 samples.

Results

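Keratins are the proteins of the intermediate filaments of epithelial cells, and 8 of them were examined in the prostate cancer cell line PC3 and its cabazitaxel (CBZ)-resistant subline PC3CR. The rule named 10 keratin genes, KRT5, KRT7, KRT8, KRT15, KRT17, KRT18, KRT19, KRT23, KRT80 and KRT81, and took a probe set when its annotation gave exactly 1 gene symbol. Probe sets were found for 8 of the 10 genes, of 19775 genes in all, and KRT17 and KRT81 were not analysed here. The 8 genes had 12 probe sets of 54613 on the array.

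PC3 is an androgen-independent line from a prostate cancer metastasis, and CBZ is a taxane that stabilises microtubules. PC3CR was derived from PC3 by passage in CBZ for 18 months and was examined after 3 months without the drug. Neither label names a genetic change, the drug-free medium was the same for both lines, and the labels do not say whether PC3CR is 1 clone. Total RNA of each line was hybridised to 1 array, 2 arrays in all, so no difference below has a replicate check and no p-value was computed. The values are log2 values from the robust multichip average (RMA), and where a gene had several probe sets, the one with the highest mean of the arrays stood for it. The median over genes was 5.93 for PC3 and 6.05 for PC3CR and the lower quartile was 4.22 and 4.10. Values under that quartile lie near the floor of the array. Different probe sets bind RNA with different strength, so levels were set against each other only between the arrays. Each level was also placed against the median and lower quartile of genes on its array. That place depends on the probe set as well, so it does not rank 1 keratin above another.

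A keratin filament is built from pairs of a type I (acidic) and a type II (basic) keratin, so a cell makes at least one of each type. Simple, single-layered epithelia, such as the luminal cells of prostate glands, make KRT8 and KRT18, often with KRT7 and KRT19. Basal cells of the prostate and of stratified epithelia make KRT5 with KRT14, along with KRT15 and KRT17. The luminal and basal classes used below follow these sets without KRT14, although KRT19 is also made by basal cells in the prostate.

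PC3CR had lower values than PC3 for KRT7, KRT15 and KRT19, while the main luminal pair KRT8 and KRT18 was not lower. Of the 8 keratins, 3 were at least 2-fold lower in PC3CR, which is 37.5%, against 6.72% of all genes. None of the 8 was at least 2-fold higher, against 9.84% of all genes. The remaining 5 lay within 2-fold, and the threshold of 2-fold (a difference of 1 on the log2 scale) is that of the methods. The keratins and the lists below were chosen with earlier results of these data known, so their shares are descriptions and not tests. The median difference over the 8 keratins was -0.27 on the log2 scale, and over all genes it was -0.04. In a cell line profiled in bulk, fewer cells that make a keratin and less of its RNA per cell cannot be told apart.

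KRT8 and KRT18 are the type II and type I partners of the luminal filament. KRT8 (probe set 209008_x_at) was at 9.72 in PC3 and 9.79 in PC3CR. This is a difference of 0.07, or 1.05-fold, so the level was nearly equal on both arrays. KRT18 (201596_x_at) read 11.69 on the PC3 array and 12.36 on the PC3CR array, which is a difference of 0.67 or 1.59-fold. Both partners therefore stayed well above the median of genes on each array. Each has a single probe set here, of the _x_at kind, whose probes can also bind related transcripts, and both genes are known for many processed pseudogenes. The KRT8 pseudogene KRT8P12 has its own probe sets, which differed by 0.15 and 0.44.

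KRT19, a type I keratin of simple epithelium that is also made by basal cells in the prostate, had the largest difference of the 8 keratins. It read 11.32 on the PC3 array and 8.03 on the PC3CR array (201650_at), which is a difference of -3.28 (9.74-fold lower). Counted from the lowest difference, KRT19 ranked 139 among 19775 genes. Its level in PC3CR was still above the median of genes on that array. The second probe set of KRT19 (228491_at) read 4.84 on the PC3 array and 3.86 on the PC3CR array, which is a difference of -0.98, just within 2-fold, with the PC3CR value near the floor. Averaged over both probe sets, KRT19 differed by -2.13.

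KRT7, a type II keratin of simple and glandular epithelium, was also lower. It read 11.19 on the PC3 array and 9.34 on the PC3CR array (209016_s_at), which is a difference of -1.86 (3.62-fold lower). Each of the 4 probe sets of KRT7 was lower in PC3CR, by different amounts. The probe set 214031_s_at differed by -1.51 and ended at 4.13, near the floor in PC3CR. The probe sets 1558393_at and 1558394_s_at differed by -0.48 and -0.37, and the latter lay under the lower quartile in both lines. The 4 probe sets read 1 gene on the same arrays, so they are not independent of each other. KRT7 passed 2-fold downwards on 2 of 4 probe sets, where 5.89% of all probe sets with 1 gene symbol did. It also passed 2-fold when the 4 were averaged, at -1.05. With 1558393_at alone, the only one without the _s_at suffix that marks probes shared by several transcripts, it did not.

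**Figure D1:**
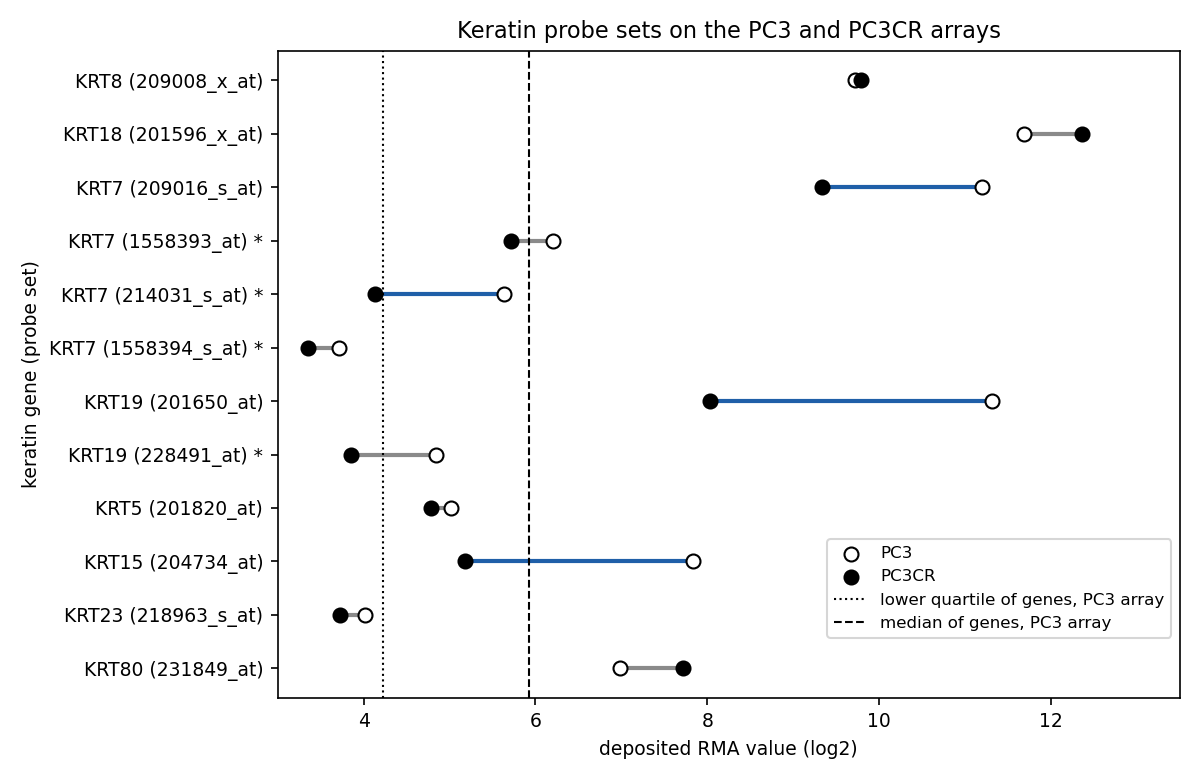
RMA values (log2, horizontal axis) of the 12 keratin probe sets, one line per probe set, with 1 array per cell line. Open circles are PC3 and filled circles PC3CR, blue lines join values at least 2-fold lower in PC3CR and grey lines values within 2-fold, and a star marks a probe set not used for its gene. The blue lines belong to KRT7 (2 of 4 probe sets), KRT19 (1 of 2) and KRT15, and KRT18 and KRT80 lie to the right in PC3CR.

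KRT15, a type I keratin of basal and progenitor cells that has no fixed partner of its own, was lower in PC3CR. Its single probe set (204734_at) read 7.84 on the PC3 array and 5.18 on the PC3CR array, which is a difference of -2.66 (6.31-fold lower). It was above the median of genes in PC3 and below it in PC3CR. KRT5, the type II keratin that defines basal cells, read 5.02 on the PC3 array and 4.78 on the PC3CR array (201820_at), which is a difference of -0.24. KRT5 was below the median of genes on both arrays, so little signal stood behind this difference. KRT14, the usual partner of KRT5 and not one of the 10 genes, lay under the lower quartile in both lines, at 2.97 and 3.31.

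KRT80, a type II keratin that is made in many epithelia and sits close to desmosomes, was at 6.99 in PC3 and 7.72 in PC3CR (231849_at). The difference of 0.73, or 1.66-fold, was the highest of the 8 keratins. KRT23, a type I keratin, lay under the lower quartile in both lines, at 4.02 in PC3 and 3.72 in PC3CR (218963_s_at). Its difference of -0.30 lay between values near the floor.

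Set by class, luminal and basal keratins each contained genes at least 2-fold lower and genes within 2-fold. Of the 4 luminal keratins, KRT7 and KRT19 were at least 2-fold lower and KRT8 and KRT18 were not, and the median difference was -0.89. Of the 2 basal keratins, KRT15 was at least 2-fold lower and KRT5 was not, and the median difference was -1.45. The luminal median was thus higher than the basal median by 0.56. This order depended on the members: with KRT14 among the basal keratins luminal minus basal was -0.65, and with only KRT8 and KRT18 as luminal keratins it was 1.82. Both arrays had high values for KRT8, KRT18, KRT7 and KRT19, which were all above the median of genes in both lines. Neither KRT5 nor KRT15 was above that median in PC3CR.

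Most other keratins had little signal in either line, and KRT37 had the lowest difference among them. Of 45 other keratin genes listed, 36 were measured, and 19 of these lay under the lower quartile in both lines. None of the 36 was at least 2-fold higher and 4 were at least 2-fold lower, which is 11.1% against 6.72% of all genes, and the median difference was -0.28. KRT37, a hair keratin, read 9.53 on the PC3 array and 4.04 on the PC3CR array, which is a difference of -5.49, with rank 21 from the lowest of all genes. KRT75, a type II keratin of the hair follicle, was at 8.64 and 4.68, a difference of -3.96. Both went from well above the median of genes in PC3 to below it in PC3CR. KRT33A, another hair keratin, differed by -2.82, from 7.08 to 4.27. KRT16, a type I keratin of stressed and wounded epithelium, differed by -2.29, from 6.02 to 3.74. KRT10, a type I keratin of differentiating epidermis, was the only one of the 36 above the median of genes in both lines, at 10.47 in PC3 and 10.27 in PC3CR.

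The keratin genes lie in a pair of clusters, with type I genes on chromosome 17 and type II genes, together with KRT18, on chromosome 12. In the order of genes that RefSeq gives, KRT15 and KRT19 are direct neighbours on chromosome 17 and were both lower, by -2.66 and -3.28. Of 23 keratins measured in the chromosome 17 cluster, 5 were 2-fold or more lower (21.7% against 6.72% of all genes) and none was higher by as much (against 9.84%), and their median difference was -0.30. These 5 were KRT15, KRT19, KRT16, KRT33A and KRT37. In PC3, 6 of the 23 were at or above the median of genes, namely these 5 and KRT10. Of 21 keratins measured in the chromosome 12 cluster, 2 were at least 2-fold lower, KRT7 and KRT75, which is 9.52% and near the 6.72% of all genes, and the median difference was -0.24. Here neighbours went apart, since KRT80 and KRT7 are adjacent and differed by 0.73 and -1.86. KRT8 and KRT18, which are also adjacent, differed by 0.07 and 0.67. A keratin without signal in PC3 had no room to be lower, so the counts in the clusters rest on the few genes with signal. The clusters were described after the values were seen, and the difference between them was not tested.

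**Figure D2:**
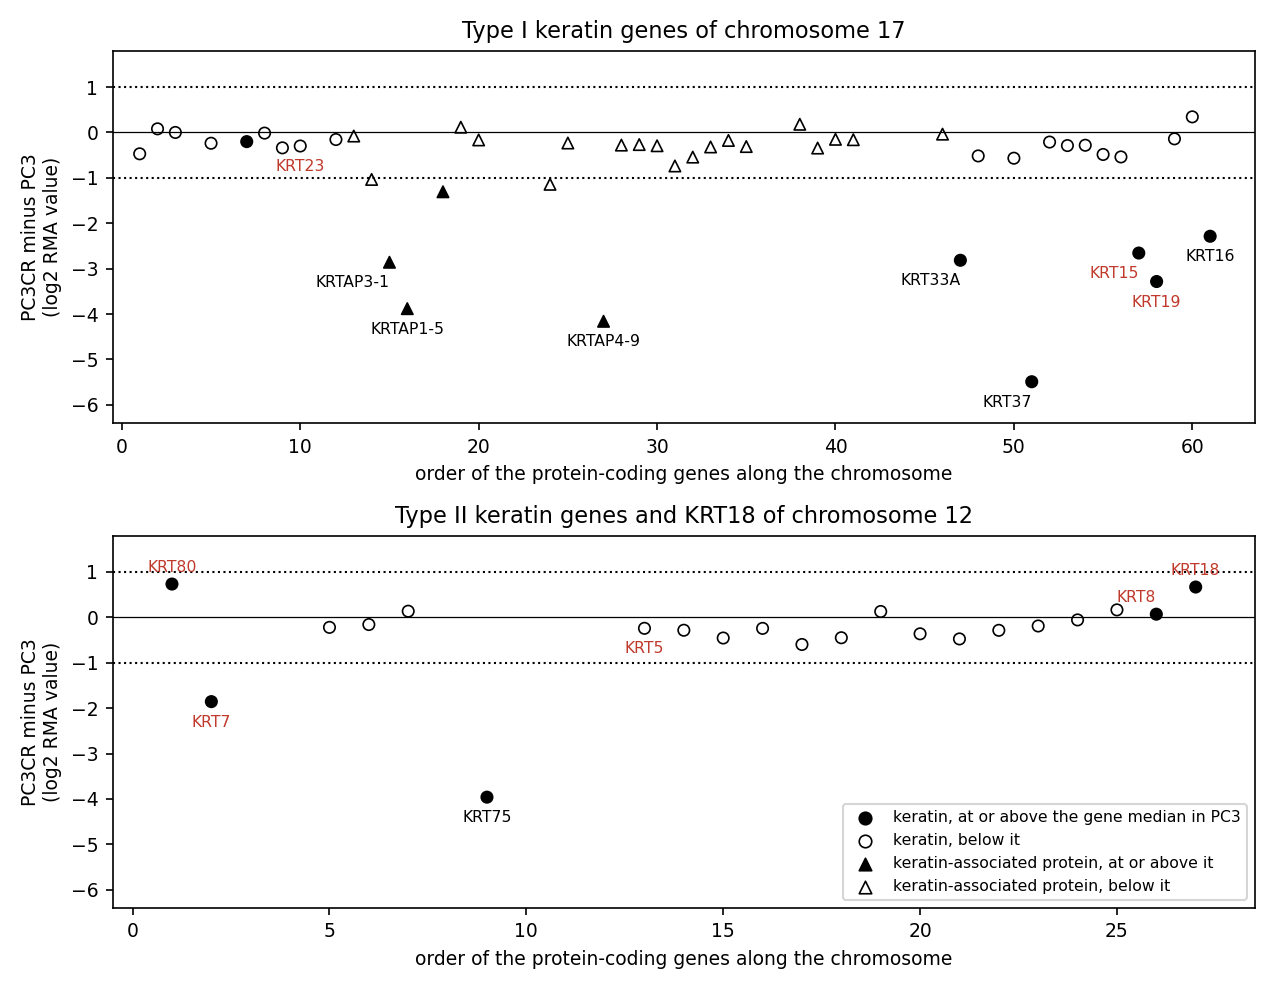
PC3CR minus PC3 (log2 RMA value, vertical axis) of keratin and keratin-associated protein genes in their order along chromosome 17 (top) and chromosome 12 (bottom), one point per measured gene. Circles are keratins and triangles keratin-associated proteins, filled where the PC3 value is at or above the median of genes, red names are keratins of the rule, and dotted lines mark 2-fold. KRT37 lies lowest, and KRT15 and KRT19 lie side by side below the lower dotted line.

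Intermediate filaments are also built from other proteins, such as vimentin and the nuclear lamins. Of 15 genes of this kind, the 2-fold threshold was passed upwards by 3 (20% against 9.84% of all genes) and downwards by 1 (6.67% against 6.72%), and their median difference was 0.28. VIM, which encodes the filament protein of mesenchymal cells, read 11.47 on the PC3 array and 12.68 on the PC3CR array, which is a difference of 1.21. Its second probe set differed by 0.91. LMNB1, the nuclear lamin B1, differed by 2.36, from 7.03 to 9.39, and SYNM, the filament linker synemin, by 1.48, from 6.86 to 8.34. NES, which encodes nestin, was the one lower gene, with a difference of -1.04 that came within 2-fold, at -0.90, when its probe sets were averaged.

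Keratin filaments are tied to the membrane at desmosomes, which join cells, and at hemidesmosomes, which attach them to the matrix. Of 17 measured genes of such anchors, the 2-fold threshold was passed upwards by 4 and downwards by 4 (23.5% each way, against 9.84% of all genes higher and 6.72% lower), and their median difference was 0.26. The plakophilins PKP1 and PKP2, which are desmosomal plaque proteins, were lower. PKP1 read 7.82 on the PC3 array and 5.09 on the PC3CR array, which is a difference of -2.73, and PKP2 was at 7.94 and 6.30, a difference of -1.64. The second probe sets of both lay within 2-fold, at -0.86 for PKP1 and -0.49 for PKP2, and the averages were -1.80 and -1.07. The hemidesmosomal integrin consists of the subunits encoded by ITGB4 and ITGA6. ITGB4 read 8.42 on the PC3 array and 5.56 on the PC3CR array, which is a difference of -2.86, while its partner ITGA6 was at 7.80 and 9.56, a difference of 1.75. The 5 probe sets of ITGB4 disagreed, from -2.86 to 0.14, so that it differed by -0.95 when they were averaged and by 0.05 without cross-binding probe sets (names ending in _s_at or _x_at), which leaves no lower call and no direction for ITGB4. Both probe sets of ITGA6 were higher, with an average of 1.67. DSP, which encodes desmoplakin, the direct link of keratins to desmosomes, was higher by 1.13. JUP, another of the anchor genes, went the other way by -1.16, from 7.80 to 6.65, on its 1 probe set. Without cross-binding probe sets 3 of the 17 anchor genes were at least 2-fold lower and 4 at least 2-fold higher.

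Transcription factors of epithelial cells, several of which act on keratin genes, included some of the lowest differences of the lists described here. Of 15 measured, 11 were lower to any extent, while among all 19775 genes a difference of 0 had rank 10367 from the lowest. The 2-fold threshold was passed downwards by 6 and upwards by none (40% lower against 6.72% of all genes, none higher against 9.84%). The median difference of the 15 was -0.47. Without cross-binding probe sets 4 were 2-fold or more lower, as ELF3 and TFAP2A were not. EHF, an ETS factor of epithelia, read 7.90 on the PC3 array and 2.73 on the PC3CR array, which is a difference of -5.16, or -1.77 when its 6 probe sets were averaged. ELF3, a related ETS factor, differed by -2.22, from 7.70 to 5.48, but by -1.21 when its 3 probe sets were averaged and by -0.70 without cross-binding probe sets. OVOL1 differed by -1.72, from 6.45 to 4.73, but its second probe set by -0.68, and the average was -1.20. TFAP2A, which encodes AP-2 alpha, differed by -1.66, from 9.94 to 8.28, or by -0.98 when its 3 probe sets were averaged. These probe sets disagreed in direction, from -1.66 to 0.25. GRHL2 and KLF5 were the other members at least 2-fold lower, at -1.89 and -1.02. GRHL2 was below the median of genes on both arrays, at 5.61 and 3.72, and under the lower quartile in PC3CR. With the differences centred on the median of all genes KLF5 came within 2-fold. Its second probe set differed by -1.88, and the average was -1.45.

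**Figure D3:**
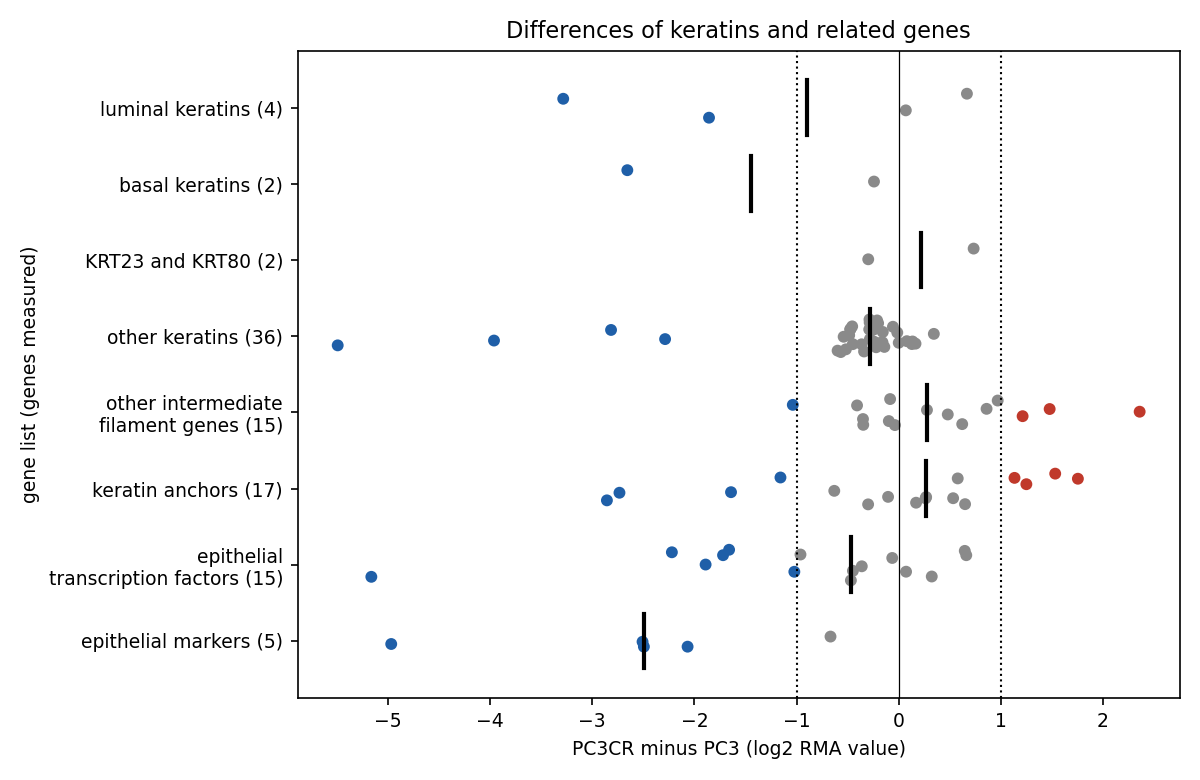
PC3CR minus PC3 (log2 RMA value, horizontal axis), one point per gene, for the keratins of the rule by class and for related gene lists. Brackets give how many genes were measured. Blue points are at least 2-fold lower in PC3CR, red points at least 2-fold higher and grey points within 2-fold, black bars are medians and dotted lines mark 2-fold. None of the keratins is red, while 3 other intermediate filament genes and 4 anchors are.

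General epithelial markers were lower beside KRT7 and KRT19, and their part in the keratin differences was not tested. Of 5 measured, 4 were 2-fold or more lower (80% against 6.72% of all genes), and the median difference was -2.49. EPCAM, an epithelial adhesion protein, went from 11.07 to 8.57, while CDH1, which encodes E-cadherin, differed by -0.67. Of 9 measured markers of luminal prostate cells, 4 were above the median of genes in PC3 and 2 in PC3CR, and of 5 markers of basal prostate cells 2 were above it in each line. KLK3, the gene of prostate-specific antigen, was at 8.04 in PC3 and 8.08 in PC3CR. Of the 9 luminal markers, 1 was 2-fold or more lower (11.1% against 6.72% of all genes) and none higher by as much (against 9.84%). Their median difference was -0.22. The lower gene was HOXB13, a homeobox gene of the prostate, which differed by -1.73 and, on its second probe set, by -2.18. Of the 5 basal markers, ITGA6 alone was 2-fold or more higher (20% against 9.84%) and none was lower by as much (against 6.72%). With the probe set of the highest value on either array, 1 basal marker was 2-fold or more lower. With loess scaling, 2 basal markers were 2-fold or more higher. The median difference of the basal markers was 0.34. This was the value of KRT14, and the luminal median was that of ACP3, both under the lower quartile of genes on each array. With values raised to the lower quartile, the medians were -0.10 for the basal and -0.12 for the luminal markers. Of 5 leukocyte markers none was above the median of genes on either array, and of 4 endothelial markers 1 was in PC3 and none in PC3CR. Of 5 neuroendocrine markers 1 was above it in each line. The fibroblast and smooth muscle list had 2 of 8 above it in PC3 and 1 of 8 in PC3CR.

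The keratin differences were set against other ways of processing the same values. KRT15 differed by between -2.77 and -2.62 over 8 alternatives and KRT19 by between -3.31 and -2.13, so that both stayed past 2-fold in all of them. KRT7 ranged from -1.86 to -0.48. KRT8 ranged from 0.05 to 0.11, KRT18 from 0.67 to 0.73 and KRT80 from 0.59 to 0.77, and none of them passed 2-fold. KRT15, KRT8, KRT18 and KRT80 have 1 probe set each, so the probe set rules could not move them. Neither the limit to genes above the median nor the floor moved these 4 keratins, so their ranges come from the scalings alone.

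**Figure D4:**
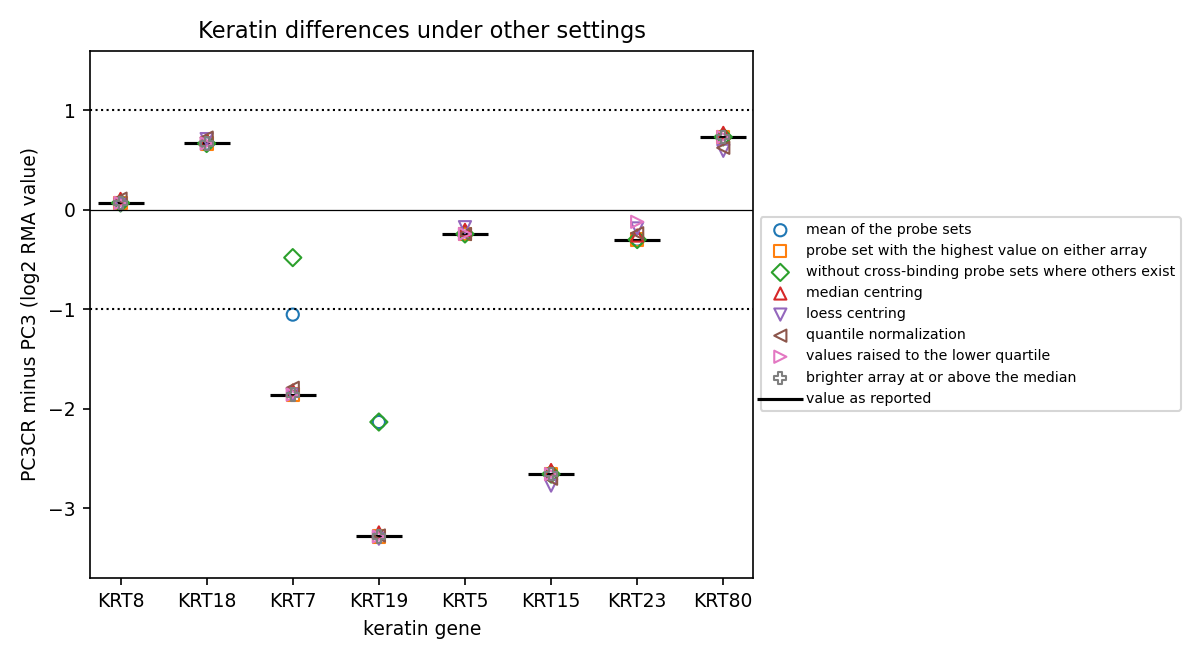
PC3CR minus PC3 (log2 RMA value, vertical axis) of each keratin as reported (black bar) and under each other way of processing (coloured symbols), with dotted lines at 2-fold. The symbols of KRT15 and KRT19 all lie below the lower dotted line, and the symbols of KRT7 spread from -1.86 to -0.48.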

How the data were processed

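Gene expression was measured in PC3 and PC3CR, 1 array each, grouped by sample title. The deposited values are log2 RMA values per probe set, for which the submitters' processing notes list Affymetrix Expression Console 1.4 and Transcriptome Analysis Console 3.1. RMA scales the arrays towards each other, so a difference in RNA per cell can be hidden. Probe set names belong to the U133 Plus 2.0 design, while the methods describe a different array. A single gene symbol was available for 41091 of 54613 probe sets, several symbols for 1801, and 11721 were unnamed here. Symbols were updated through Entrez IDs to RefSeq (GRCh38.p14), which also gave gene order. PC3CR minus PC3 was computed per gene and counted at 2-fold. The number of arrays limits the precision, and no test was possible.

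The members and lists were chosen with earlier results of these data known. All 10 keratins, VIM, KRT14 and TP63 were to be named, and in each other list up to 4 genes furthest from 0 past 2-fold among those at or above the median of genes on their brighter array. TP63 was not analysed here. NES, DSP, JUP, HOXB13, KRT10, GRHL2, KLF5, the pseudogene, the single markers and the keratin clusters were chosen after their values were seen. Alternatives were other probe set rules, scalings (median, loess with a span of 0.4, quantile), floors and fold thresholds. Scripts ran in Python 3.11.15 with pandas 2.3.3, numpy 2.4.6, matplotlib 3.10.9 and, for loess, statsmodels 0.14.6.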

Additional observations from a re-analysis of the deposited data

How the results depend on the processing

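With 1 array per cell line no alternative bears on biological spread, and changes of up to 0.1 (log2) in a value, or up to 1.5 times in a count, were not regarded as a move. No paired analysis was possible because each line has 1 array. The count of keratins at least 2-fold lower was 3 or, without cross-binding probe sets where others exist, 2, because KRT7 then rests on 1 probe set. The count at least 2-fold higher was 0, and at a threshold of 1.5-fold it was 2 (KRT18 and KRT80). The median difference of the luminal keratins was -0.49 with the mean of the probe sets, -0.21 without cross-binding probe sets and 0.37 with KRT8 and KRT18 alone, and luminal minus basal was then 0.96, 1.24 and 1.82. With genes kept only if they reached the median of genes on their brighter array, the medians were -0.89 over the 6 keratins left and -2.66 for the basal keratins (KRT15 alone), and luminal minus basal was 1.76. With KRT14 added the basal median was -0.24 and luminal minus basal was -0.65. In all, 44 comparisons of these summaries with an alternative stayed within those limits, and the change of the lower count from 3 to 2 is among them. For single keratins 53 of 62 stayed within them. Part of the 44 and of the 53 was fixed in advance, since a keratin with 1 probe set cannot move under another probe set rule. KRT5 and KRT15 have 1 probe set each, so the basal median could not move under those rules. Median centring cancels in luminal minus basal. None of the keratins past 2-fold changed sign.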

Other observations

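Genes for keratin-associated proteins, which cross-link hair keratins, lie among the type I keratins on chromosome 17 and were described after their values were seen. Of 23 measured there, 6 were at least 2-fold lower in PC3CR (26.1% against 6.72% of all genes) and none was higher by as much (against 9.84%), with a median difference of -0.29. KRTAP4-9 read 7.16 on the PC3 array and 3.00 on the PC3CR array, which is a difference of -4.16. KRTAP1-5 was at 8.17 and 4.29, a difference of -3.88, and KRTAP3-1 differed by -2.86. These 3 and KRTAP1-3, which differed by -1.31, were the genes of this group above the median of genes in PC3, and none of the 23 was above it in PC3CR. The other 2, KRTAP4-7 and KRTAP3-2, differed by -1.14 and -1.04 between values below the lower quartile of genes.

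Probe sets that the annotation gives to several genes were kept out of the comparisons. One shared by KRTAP2-3 and KRTAP2-4 read 11.68 on the PC3 array and 4.96 on the PC3CR array, which is a difference of -6.72, while another probe set of the same pair was near the floor on both arrays, at 3.03 and 2.79. A probe set shared by KRT34, a hair keratin, and an uncharacterised locus read 9.63 on the PC3 array and 3.26 on the PC3CR array, which is a difference of -6.36. Which gene of each pair gave the signal was not tested.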
